A study of Mus musculus with 12 samples.

Results

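The genes described here are 9 that mark or drive cell proliferation, namely the proliferation markers Mki67, Top2a and Aurkb and the genes of the 6 subunits of the Mcm2-7 helicase (Mcm2, Mcm3, Mcm4, Mcm5, Mcm6 and Mcm7). They were chosen by gene symbol from the 33024 symbols of the count table, and all 9 were among the 16059 genes that passed the expression filter. Cortex RNA of 12 wildtype C57BL/6 mice was sequenced in bulk. The 7 Control mice (treatment label Vehicle) had drunk water from both of their bottles. The 5 EtOH mice had been offered 20% (v/v) ethanol beside water for 12 h of each dark phase, over 35 sessions begun at an age of 30 days, and had then abstained for 14 days before behavioural testing and tissue collection. Brains were perfused with saline, and the labels name no transgene or other agent for either group.

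Before a cell can copy its DNA, the origin recognition complex, Cdc6 and Cdt1 load the ring-shaped Mcm2-7 complex onto replication origins, a step called licensing, and the ring later becomes the helicase that unwinds DNA at the fork. Mki67 encodes the Ki-67 protein that coats mitotic chromosomes and is present in all cycling cells, Top2a encodes the topoisomerase that untangles replicated DNA, and Aurkb encodes the kinase of the chromosomal passenger complex. In the adult brain neurons do not divide, and proliferation is known mainly from oligodendrocyte precursors, microglia and the progenitors of the subventricular zone and dentate gyrus. In bulk tissue, fewer cells of a type and less RNA per cell cannot be told apart.

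Of the 9 genes, Top2a and Mcm5 were called lower in the EtOH mice, Aurkb was called lower as well but passed the expression filter through Control mice alone, and the other 6 were not called (edgeR's quasi-likelihood test, 5 EtOH against 7 Control mice, with an adjusted p under 0.05 over all genes tested and a change of more than 0.5 on the log2 scale). Over all genes tested, 4.09% were called lower by the same rule, 4.2% higher and 8.29% in either direction. None of the 9 was called higher by edgeR, DESeq2 or limma voom, and at an unadjusted p under 0.05 edgeR gave 4 lower genes, Aurkb included, and 1 higher gene among them. Over all genes tested, 17.9% were lower and 18.6% higher at that threshold. Log2 fold changes were negative for 8 of the 9, against 50% of all genes tested, and their median was -0.22, against a median of all genes within 0.01 of 0. Both values include Aurkb, which passed the filter through Control mice alone. The groups did not overlap for 2 of the 9, Top2a and Mcm5, in both cases with every EtOH mouse below every Control mouse, a pattern found in 4.96% of all genes tested. The opposite, with every EtOH mouse above every Control mouse, was found for none of the 9 and for 4.84% of all genes tested.

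**Figure D1:**
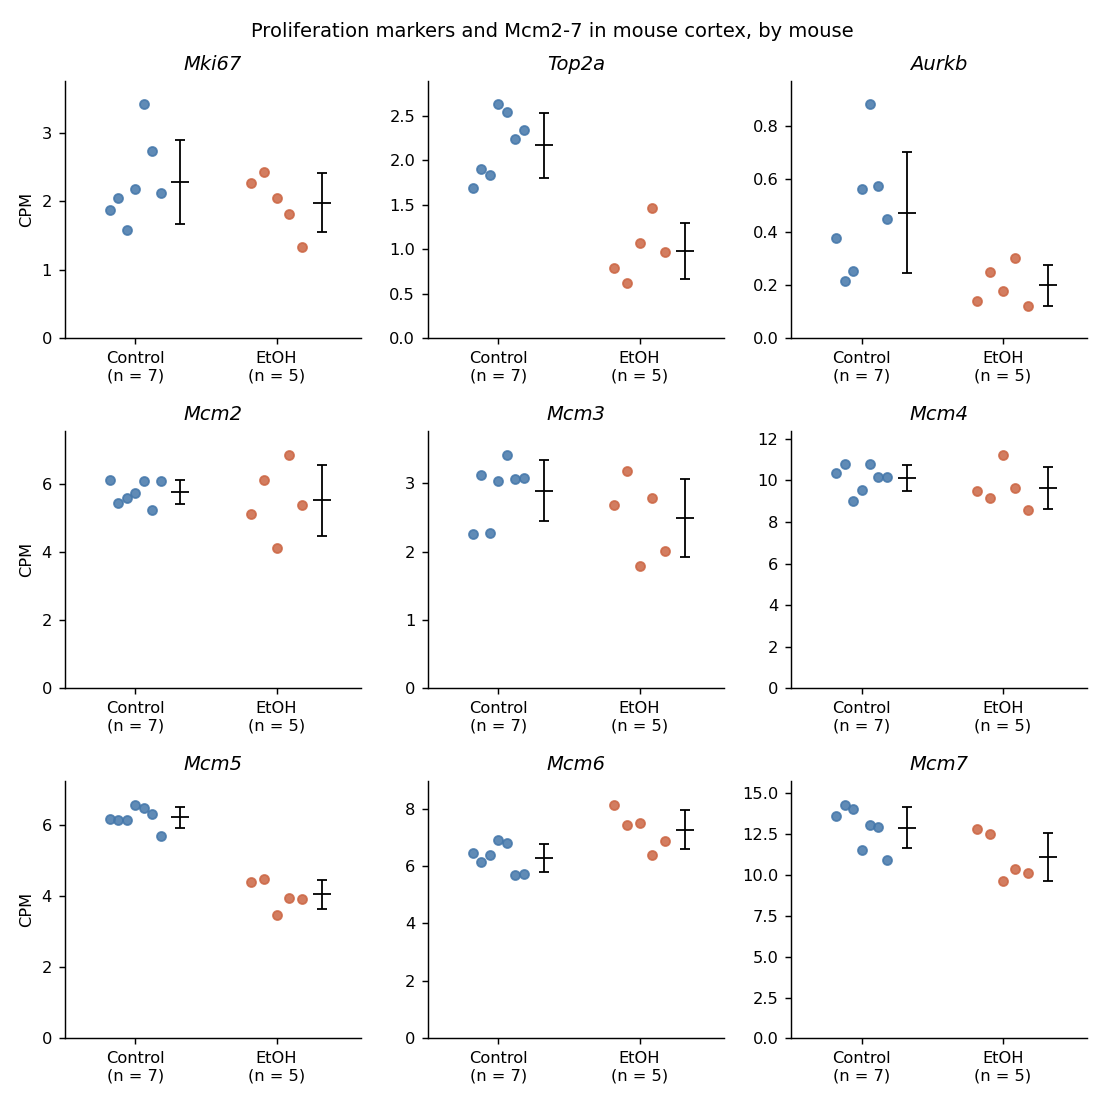
Normalised level in counts per 1000000 counts of the library (CPM, linear axis from 0) of each of the 9 genes, with 1 point per mouse (7 Control, 5 EtOH) and the group mean ± SD as a bar beside the points. For Top2a and Mcm5 the groups are apart, for Aurkb 3 of the 5 EtOH mice lie below every Control mouse, and Mcm6 has the higher mean in the EtOH mice.

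Top2a lies on chromosome 11 of GRCm39 from 98883769 to 98915062 on the minus strand. Its counts were between 54 and 104 (median 70) in the Control mice and 34, 20, 36, 48 and 32 in the EtOH mice 1 to 5. Control mice had 1.69 CPM at the lowest, 2.23 at the median and 2.63 at the highest, while the EtOH mice 1 to 5 had 0.788, 0.622, 1.07, 1.46 and 0.973 CPM. The highest EtOH mouse thus lay below the lowest Control mouse. The mean of the 7 Control mice was 2.17 ± 0.36 CPM (SD), and it fell to 0.983 ± 0.316 CPM (SD) in the 5 EtOH mice, which is -1.14 ± 0.21 on the log2 scale (difference and its standard error, adjusted p = 0.000752 by edgeR). Top2a stayed called in all 22 alternative fits, with log2 fold changes between -1.33 and -1.02. A small nucleolar RNA gene overlaps 122 bases of its annotated exons on the same strand.

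Aurkb, on chromosome 11 from 68936467 to 68944764 on the plus strand, had the lowest counts of the 9. Its counts were between 7 and 36 (median 14) in the Control mice and 6, 8, 6, 10 and 4 in the EtOH mice 1 to 5. In CPM, the Control mice ranged from 0.214 to 0.879 (median 0.449) and the EtOH mice from 0.122 to 0.303, so the groups overlapped. All 5 EtOH mice lay below the Control median and 5 of the 7 Control mice above every EtOH mouse. The mean of the 7 Control mice was 0.473 ± 0.227 CPM (SD), and it fell to 0.198 ± 0.076 CPM (SD) in the 5 EtOH mice, which is -1.27 ± 0.39 on the log2 scale (difference and its standard error, adjusted p = 0.0264 by edgeR). This call rested on the filter and on single libraries. The filter asked for 0.310 CPM or more (before TMM scaling) in at least 5 mice, which 5 Control mice and 0 EtOH mice reached, so a gene tested on these terms had to be lower in the EtOH mice and its call is no independent support. Under the filter of at least 1 count in any mouse the adjusted p was 0.0417 by edgeR. Aurkb did not pass the main filter without Control mouse 1, 4, 5, 6 or 7, and it was not called without EtOH mouse 1, 3 or 5 (edgeR adjusted p = 0.0715, 0.0564 and 0.0673). It was also not called when the deepest mouse of each group, Control mouse 5 and EtOH mouse 1, was left out (log2 fold change -0.91, edgeR adjusted p = 0.116, where the alternatives that kept the gene ranged from 0.0151 to 0.116).

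Mki67, on chromosome 7 from 135291513 to 135318299 on the minus strand, was counted between 50 and 140 times (median 67) in the Control mice and 98, 78, 69, 60 and 44 times in the EtOH mice 1 to 5. Control mice ranged from 1.58 to 3.42 CPM with a median of 2.12, and EtOH mice had 2.27, 2.43, 2.06, 1.82 and 1.34 CPM. The groups overlapped almost entirely, with 1 EtOH mouse below every Control mouse and 2 Control mice above every EtOH mouse. The means were 2.28 ± 0.61 (SD, n = 7) and 1.98 ± 0.43 CPM (SD, n = 5), and the log2 fold change was -0.21 with a 95% confidence interval from -0.63 to 0.22 (edgeR adjusted p = 0.485). The interval includes 0 as well as -0.5, so a difference of that size could not be resolved for Mki67 at this depth and number of mice. The highest Mki67 and Aurkb levels were both those of Control mouse 5, at 3.42 and 0.879 CPM, and without that mouse the log2 fold change of Mki67 was -0.08. The ratio of Top2a to Mki67 CPM, not corrected for gene length, was 0.978 ± 0.178 in the Control mice (SD, n = 7) and 0.530 ± 0.235 in the EtOH mice (SD, n = 5). These ratios ranged from 0.743 to 1.20 and from 0.256 to 0.800 and overlapped.

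**Figure D2:**
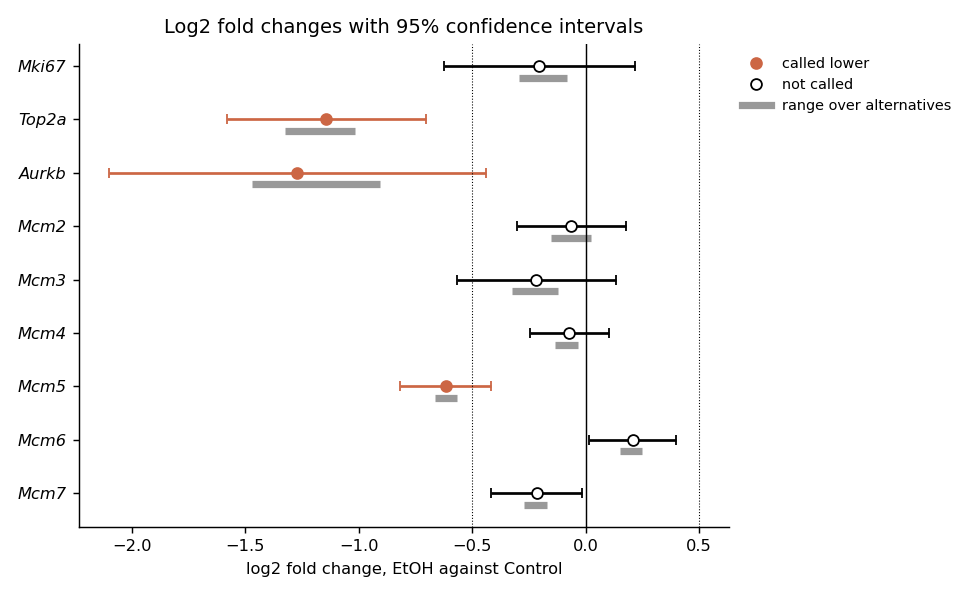
Log2 fold change of EtOH against Control mice for each gene (point) with its 95% confidence interval from edgeR (bar), and the range of the log2 fold change over the alternative fits that kept the gene (grey). Dotted lines mark the minimum size of 0.5. The intervals of Top2a, Aurkb and Mcm5 lie below 0, as does that of Mcm7 (-0.42 to -0.02), and that of Mcm6 lies between 0.02 and 0.40.

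Of the 6 helicase genes, Mcm5 alone was called. It lies on chromosome 8 from 75836140 to 75856231 on the plus strand and was counted between 177 and 265 times (median 198) per Control mouse and 190, 144, 116, 130 and 129 times in the EtOH mice 1 to 5. Control mice ranged from 5.68 to 6.56 CPM with a median of 6.17, and the EtOH mice had 4.40, 4.48, 3.46, 3.94 and 3.92 CPM. No EtOH mouse came within 1 CPM of the lowest Control mouse. The mean of the 7 Control mice was 6.21 ± 0.29 CPM (SD), and it fell to 4.04 ± 0.41 CPM (SD) in the 5 EtOH mice, which is -0.62 ± 0.10 on the log2 scale (difference and its standard error, adjusted p = 0.000164 by edgeR). The gene was called in all 22 alternative fits, with log2 fold changes between -0.66 and -0.57.

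Mcm6 was the one gene of the 9 with a positive log2 fold change, and it was not called. It lies on chromosome 1 from 128259311 to 128287516 on the minus strand, and its counts were between 178 and 279 in the Control mice (median 202) and 351, 239, 252, 210 and 226 in the EtOH mice 1 to 5. Control mice ranged from 5.68 to 6.91 CPM (median 6.38), and EtOH mice had 8.14, 7.44, 7.51, 6.37 and 6.87 CPM. Of the 5 EtOH mice, 3 lay above every Control mouse and 4 above the Control median. The log2 fold change was 0.21 with a 95% confidence interval from 0.02 to 0.40 (edgeR unadjusted p = 0.0354, adjusted p = 0.107), and it stayed positive in all 22 alternative fits, between 0.15 and 0.25.

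Mcm7, on chromosome 5 from 138162844 to 138170684 on the minus strand, ranged from 10.9 to 14.3 CPM in the Control mice (median 13.0), and the EtOH mice 1 to 5 had 12.8, 12.5, 9.63, 10.4 and 10.2 CPM. All 5 EtOH mice lay below the Control median and 3 below every Control mouse. The log2 fold change was -0.22 with a 95% confidence interval from -0.42 to -0.02 (edgeR unadjusted p = 0.0350, adjusted p = 0.106). Its exons overlap those of Ap4m1 and Cops6 on the opposite strand over 348 and 344 bases, and those of the microRNA genes Mir25 and Mir93 on the same strand, so some of its counts are uncertain.

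The remaining helicase genes differed by less than the spread between mice. For Mcm2, on chromosome 6 from 88860452 to 88875762, the EtOH mice spanned the whole Control range, from 4.11 to 6.86 CPM against 5.23 to 6.11 CPM, and the log2 fold change was -0.06 (95% confidence interval -0.30 to 0.18, edgeR adjusted p = 0.728). For Mcm3, on chromosome 1 from 20870791 to 20890536, EtOH mice ranged from 1.79 to 3.17 and Control mice from 2.25 to 3.42 CPM, and the log2 fold change was -0.22 (-0.57 to 0.13, edgeR adjusted p = 0.364). For Mcm4, on chromosome 16 from 15440211 to 15455264, EtOH mice ranged from 8.57 to 11.2 and Control mice from 9.03 to 10.8 CPM, and the log2 fold change was -0.07 (-0.25 to 0.10, edgeR adjusted p = 0.564). The intervals of Mcm2 and Mcm4 hold no change beyond the minimum of 0.5 in either direction, whereas that of Mcm3 reaches past -0.5.

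Because the 6 proteins assemble in equal numbers, their RNAs were also set against each other within each mouse. Mcm5 made up 14.1% ± 0.6 of the summed Mcm2-7 CPM in the Control mice (SD, n = 7, from 13.4% to 15.2%) and 10.1% ± 0.6 in the EtOH mice (SD, n = 5, from 9.16% to 10.6%), and the groups did not overlap. The share of Mcm6 was 14.3% ± 1.0 in the Control mice (SD, n = 7) and 18.2% ± 1.6 in the EtOH mice (SD, n = 5). The highest Control share of 16.0% lay just above the lowest EtOH share of 15.9%. The ratio of Mcm5 to Mcm6 CPM, not corrected for gene length, was between 0.950 and 1.11 in the Control mice and between 0.460 and 0.619 in the EtOH mice. These shares and ratios were formed after the levels of both genes had been seen, and they are given as a description with no test. The shares of Mcm2, Mcm3, Mcm4 and Mcm7 overlapped between the groups. The sum over the 6 genes was 44.1 ± 1.7 CPM in the Control mice (SD, n = 7, from 41.6 to 46.6) and 40.0 ± 2.7 CPM in the EtOH mice (SD, n = 5, from 36.9 to 42.8).

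**Figure D3:**
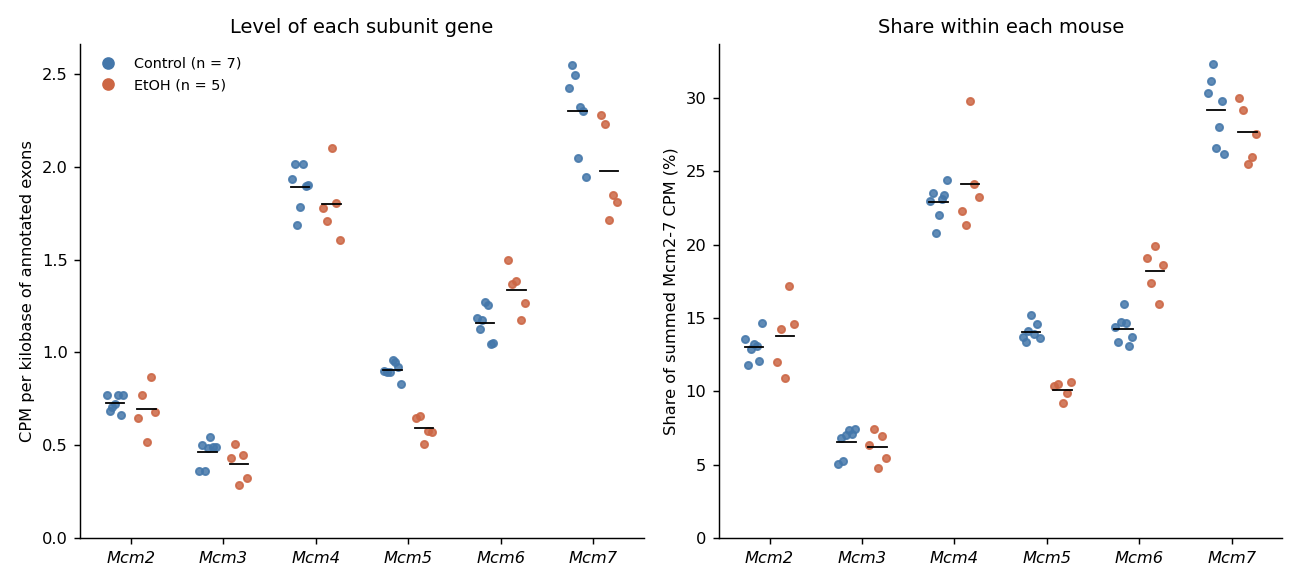
Level of the 6 helicase genes in CPM per kilobase of annotated exons (left) and the share of each in the summed Mcm2-7 CPM of the same mouse (right), with 1 point per mouse and the group mean as a line. Mcm7 and Mcm4 are the most abundant per length in both groups, and the Mcm5 shares of 9.16% to 10.6% in the EtOH mice lie below all those of the Control mice.

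Compared between genes per length, Mcm7 was the most abundant helicase gene in the Control mice with 2.30 ± 0.23 CPM per kilobase of annotated exons (SD, n = 7), followed by Mcm4 with 1.89 ± 0.12, Mcm6 with 1.16 ± 0.09, Mcm5 with 0.908 ± 0.042, Mcm2 with 0.726 ± 0.045 and Mcm3 with 0.462 ± 0.072. Neighbours in this order did not overlap between mice, except Mcm7 and Mcm4. In the EtOH mice the order was the same apart from Mcm2, with 0.696 ± 0.131 CPM per kilobase (SD, n = 5), which stood above Mcm5 with 0.591 ± 0.061 but overlapped with it. Mcm5 and Mcm3 also overlapped there, as did Mcm7 and Mcm4. With the length of the longest annotated transcript in place of all exons, Mcm2 stood above Mcm5 already in the Control mice, at 1.39 ± 0.09 against 1.33 ± 0.06 CPM per kilobase (SD, n = 7), so the order of these 2 genes depends on the gene model. On the scale of all annotated exons the means of the proliferation markers lay below those of all helicase genes in both groups, with 0.238 ± 0.040 (Top2a), 0.222 ± 0.060 (Mki67) and 0.132 ± 0.064 CPM per kilobase (Aurkb) in the Control mice (SD, n = 7).

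The promoters of Top2a, Mcm5 and Mcm6 are shown because the first 2 belong to the genes that separated the groups and the third to the helicase gene with a positive log2 fold change. The 250 bases before the start of the canonical Gencode transcript were searched on both strands for the CCAAT box (CCAAT), for the cell cycle genes homology region known from genes of G2 and mitosis (TTTGAA), and for the core of sites of E2F factors, which are known for driving genes of S phase (4 forms: the form TTCCCGC, the form TTGGCGC, the form TTCGCGC and the form TTGCCGC). A match of the E2F core can overlap a CCAAT box or another E2F core on the opposite strand, and in the windows of the 9 genes the latter occurred, in Mcm5 and Mcm6. Of the 15631 genes tested that had such a window, 35% held a CCAAT box, 12.5% a TTTGAA and 11.3% an E2F core. The parts of the windows outside annotated exons read as follows, 5′ to 3′ on the strand of the gene, with matches in capitals. They are from chr11:98915063-98915291 (minus strand), chr8:75835890-75836139 (plus strand) and chr1:128287517-128287702 (minus strand) of GRCm39.
Top2a: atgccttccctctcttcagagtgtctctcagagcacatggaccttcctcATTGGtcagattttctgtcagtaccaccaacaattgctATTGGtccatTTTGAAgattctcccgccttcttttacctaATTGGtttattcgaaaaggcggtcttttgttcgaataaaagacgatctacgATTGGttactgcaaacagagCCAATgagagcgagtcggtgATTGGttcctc
Mcm5: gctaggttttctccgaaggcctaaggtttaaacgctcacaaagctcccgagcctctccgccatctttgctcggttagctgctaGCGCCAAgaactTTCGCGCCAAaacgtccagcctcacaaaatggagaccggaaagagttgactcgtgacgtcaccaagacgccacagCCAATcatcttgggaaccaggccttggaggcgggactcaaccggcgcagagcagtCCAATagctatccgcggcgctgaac
Mcm6: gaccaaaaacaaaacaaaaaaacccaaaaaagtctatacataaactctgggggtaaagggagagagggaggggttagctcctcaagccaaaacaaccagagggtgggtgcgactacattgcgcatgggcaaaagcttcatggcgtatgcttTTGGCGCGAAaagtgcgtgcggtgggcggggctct
The full Top2a window held 6 CCAAT boxes and 1 TTTGAA, and no E2F core. Aurkb, the other marker called lower, held 3 CCAAT boxes and 1 TTTGAA, and again no E2F core. The Mcm5 window held 3 matches of the E2F core and 2 CCAAT boxes, and that of Mcm6 held 4 matches of the E2F core and 1 CCAAT box. Counted from the transcript start, the Mcm6 E2F matches from -36 to -27 and its CCAAT box from -47 to -43 lie in the 64 exonic bases not printed. Mcm4 held 2 E2F matches and 1 CCAAT box. Mcm2, which was not called, also held 1 TTTGAA, with 1 CCAAT box, and Mcm3 held 3 CCAAT boxes, while Mcm7 and Mki67 held no match of any kind. Windows of Mcm5 and Mcm6 held the same kinds of motif. The relation of these motifs to the log2 fold changes was not tested. A match is only a run of letters, and binding of a factor was not measured.

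Other genes of the same process were taken from lists of 80 genes, of which 76 were tested. In the list for origin licensing and helicase activation, 20 of 21 genes were tested, and the median log2 fold change was 0.11. Of the 20, 1 was called lower and 19 were not called, while 4.09% of all genes tested were called lower. No gene of this list was called higher by edgeR, DESeq2 or limma voom. At an unadjusted p under 0.05 in edgeR, 2 were lower and 4 higher, against 17.9% and 18.6% of all genes tested. The gene called was Gmnn, which encodes geminin, the inhibitor of Cdt1 that prevents a second licensing in the same cycle. Gmnn ranged from 1.15 to 2.02 CPM in the Control mice (median 1.84), and the EtOH mice 1 to 5 had 0.811, 0.933, 0.626, 0.910 and 0.912 CPM. All EtOH mice lay below all Control mice, and the difference was -1.05 ± 0.19 on the log2 scale (standard error, adjusted p = 0.000710 by edgeR), with the call kept in all 12 fits that left out 1 mouse. Another annotated gene overlaps 573 bases of its exons on the opposite strand. The most abundant genes of the list, Orc4, Orc3, Mcmbp and Topbp1, had log2 fold changes of 0.02, 0.15, 0.13 and 0.09 and were not called.

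In the replication fork list all 24 genes were tested, and the median log2 fold change was -0.02. Of the 24, 1 was called higher and 23 were not called, while 4.2% of all genes tested were called higher. The gene called was Tk1, the thymidine kinase of the nucleotide salvage pathway, whose Control mice ranged from 0.674 to 1.25 CPM (median 1.03), while the EtOH mice 1 to 5 had 1.55, 1.37, 1.04, 1.58 and 1.76 CPM. Its difference was 0.58 ± 0.21 on the log2 scale (standard error, adjusted p = 0.0493 by edgeR), and the call was lost in 9 of the 12 fits that left out 1 mouse, those without Control mouse 1, 2, 3, 4 or 6 or EtOH mouse 1, 2, 4 or 5. Over all 12 of these fits its log2 fold change lay between 0.51 and 0.68. Exons of Afmid and Syngr2 overlap those of Tk1 on the opposite strand. No fork gene was called lower by edgeR, with 1 lower and 2 higher at an unadjusted p under 0.05. Over all genes tested, 17.9% were lower and 18.6% higher at that threshold. DESeq2 and limma voom each called Rrm2 lower, a subunit of ribonucleotide reductase (edgeR log2 fold change -0.61, adjusted p = 0.0604). The 4 most abundant fork genes, Rpa1, Rfc1, Rfc2 and Pcna, had log2 fold changes of 0.19, 0.05, -0.08 and -0.07. For Rpa1, a subunit of the single-strand binding complex, every EtOH mouse (45.6 to 55.7 CPM) lay above every Control mouse (41.0 to 44.8 CPM), and the adjusted p was 0.0224 by edgeR, with a change under the minimum size. For Pcna, the sliding clamp and an S phase marker, the means were 29.1 ± 2.0 (SD, n = 7) and 27.7 ± 2.9 CPM (SD, n = 5, edgeR adjusted p = 0.503).

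In the mitosis list 32 of 35 genes were tested. Of the 32, 2 were called lower and 30 were not called, while 4.09% of all genes tested were called lower. The list's median log2 fold change was -0.21, and 23 of the 32 log2 fold changes were negative, against 50% of all genes tested. The genes called were Kif11, a spindle motor, and Anln, the cytokinesis protein anillin. Kif11 fell from a mean of 2.35 ± 0.45 CPM (SD) in the 7 Control mice to 1.37 ± 0.19 CPM (SD) in the 5 EtOH mice, with EtOH mice from 1.12 to 1.62 CPM below all Control mice from 1.88 to 3.04 CPM, which is -0.77 on the log2 scale (adjusted p = 0.00364 by edgeR). Anln fell from a mean of 31.0 ± 3.9 CPM (SD) in the 7 Control mice to 20.8 ± 3.4 CPM (SD) in the 5 EtOH mice, again without overlap, which is -0.58 on the log2 scale (adjusted p = 0.000686 by edgeR), and lost its call without EtOH mouse 4, where the log2 fold change of -0.496 was under the minimum size. Anln is also known from myelinating oligodendrocytes. Of the oligodendrocyte markers, 2 of 6 (Mbp and Mobp) were called lower and all 6 had negative log2 fold changes (median -0.43), with a summed level of 4285 to 5703 CPM in the Control mice and 2872 to 5139 CPM in the EtOH mice, and their part in the values of Anln was not tested. No mitosis gene was called higher by edgeR, DESeq2 or limma voom. At an unadjusted p under 0.05 in edgeR, 6 were lower and 2 higher, against 17.9% and 18.6% of all genes tested. One of the 2 higher genes was Smc2, a condensin subunit, with EtOH mice from 10.8 to 12.8 CPM above all Control mice from 7.05 to 9.65 CPM. Its log2 fold change of 0.42 (adjusted p = 0.00268 by edgeR) was under the minimum size. The cyclin gene Ccnb1 was not called by edgeR (adjusted p = 0.0672) and was the only gene of the list that DESeq2 called lower in addition. It reached the filter's cutoff in 6 Control mice and 1 EtOH mouse, and the lowest EtOH mouse had 0 CPM. It was thus tested through the Control mice, so its DESeq2 call is no independent support and no fold change is given. The partners of Aurkb in the chromosomal passenger complex, Incenp, Birc5 and Cdca8, were not called, and the difference of Incenp was -0.24 on the log2 scale (adjusted p = 0.0516 by edgeR).

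**Figure D4:**
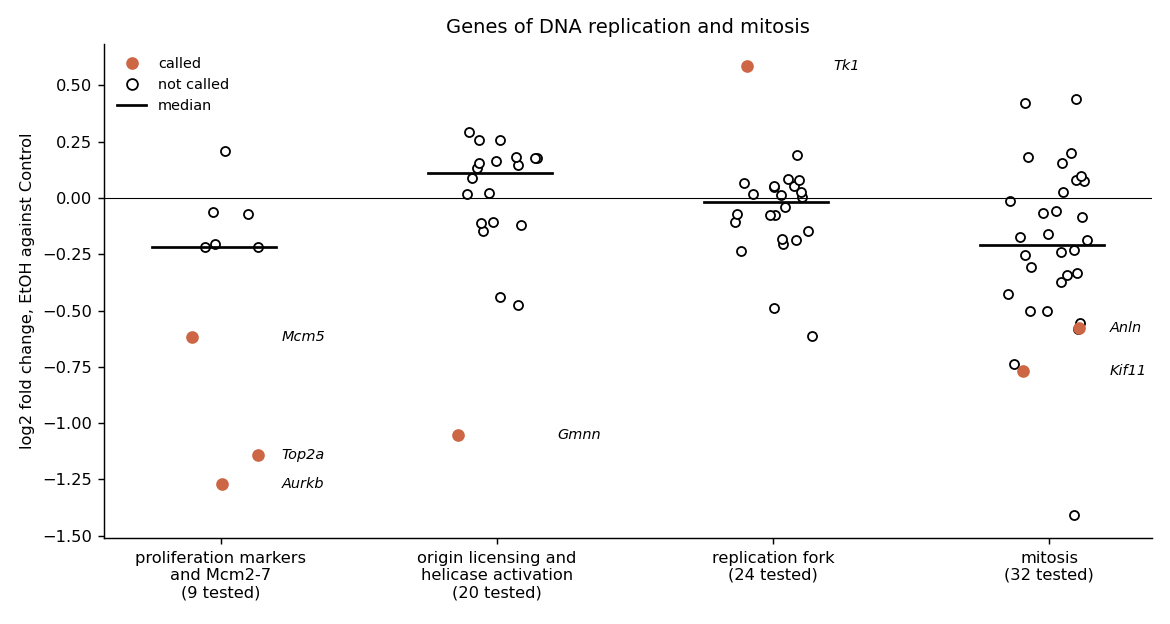
Log2 fold change of EtOH against Control mice for every tested gene of 4 lists (9, 20, 24 and 32 genes), with genes called in colour and named, and list medians as lines. Sideways position within a list carries no value. Gmnn, Kif11, Anln and Tk1 are the genes called outside the 9, and most others lie between -0.5 and 0.5.

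The 12 libraries held between 31768076 and 42183029 counts, and 3 counts, taken as the floor for detection, corresponded to at most 0.0944 CPM. Even numbers were in excess, at between 64.9% and 68.5% of gene counts from 1 to 200 in each mouse, and 81 of the 108 values of the 9 genes were even. Whether both reads of a pair were counted is not given in the sources used here, and the calls of Top2a and Mcm5 were kept with counts halved, where Aurkb did not pass the filter. The 8 excitatory neuron markers of cortex were all detected, at a summed 2426 to 2938 CPM in the Control and 2418 to 2977 CPM in the EtOH mice, most of it from Slc17a7 (means of 1955 and 1906 CPM). The list did not move as one. Fezf2, a factor of deep layer neurons, was called higher (log2 fold change 0.60, edgeR adjusted p = 0.000100), with every EtOH mouse above every Control mouse. Short of the minimum size, Cux2, Neurod6 and Rasgrf2 had log2 fold changes of 0.31, 0.26 and 0.26 and Tbr1 one of -0.40, with edgeR adjusted p-values between 0.00222 and 0.0286. Markers of neighbouring regions moved with the groups. All 9 striatum markers (among them Drd1, Drd2, Adora2a and Penk) were called lower, with a summed level of 983 to 2359 CPM against 232 to 299 CPM in the EtOH mice, and 7 of 8 hippocampus markers (among them Prox1, Fibcd1, Spink8 and C1ql2) were called higher, with 136 to 230 CPM against 330 to 361 CPM. Among the 7, Dsp reached the filter's cutoff in 1 Control and 5 EtOH mice, so its call is no independent support. The part of the striatum and hippocampus differences in the values of Top2a, Aurkb, Mcm5 and Gmnn was not tested.

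Among the cell types in which proliferation is known, the list of neural progenitor and neuroblast markers had 3 of 10 genes called lower, with a summed level of 178 to 226 CPM in the Control mice and 200 to 234 CPM in the EtOH mice, and none of its genes was at 0. Igfbpl1, known from immature neurons, ranged from 1.20 to 1.98 CPM in the Control mice (median 1.63), and the EtOH mice 1 to 5 had 0.417, 0.436, 0.835, 0.425 and 0.547 CPM, which is -1.62 on the log2 scale (adjusted p = 6.07e-05 by edgeR). Eomes, a transcription factor of intermediate progenitors, varied between 0.125 and 7.87 CPM in the Control mice (median 1.80) and lay between 0.0910 and 0.278 CPM in the EtOH mice, close to the floor. It was called lower, but it too passed the filter through 5 Control and 0 EtOH mice, and 2 of the 7 Control mice lay within the EtOH range, so no fold change is given. Dlx2, a factor of the interneuron and striatal lineage, was lower (log2 fold change -0.59, edgeR adjusted p = 0.00115). The oligodendrocyte precursor list had a median log2 fold change of 0.04, with a summed level of 213 to 240 CPM in the Control and 226 to 233 CPM in the EtOH mice. Its members went both ways. None of the 6 was called by edgeR, DESeq2 or limma voom, but 2 were lower and 2 higher at an unadjusted p under 0.05 in edgeR, against 17.9% and 18.6% of all genes tested. Cspg4 and Pdgfra had log2 fold changes of 0.37 and 0.23 (edgeR adjusted p = 0.00245 and 0.0253), and Olig2 and Sox10 of -0.32 and -0.21 (edgeR adjusted p = 0.0121 and 0.105). The microglia list had a median of -0.23, with 238 to 262 CPM against 204 to 226 CPM, so that its summed level did not overlap between the groups, although none of its 6 genes was called by edgeR, DESeq2 or limma voom (4 lower at an unadjusted p under 0.05 in edgeR, against 17.9% of all genes tested). For endothelial cells the median was -0.06, with 183 to 203 CPM against 187 to 207 CPM. Astrocyte markers summed to 1497 to 1645 CPM against 1612 to 1728 CPM, with Gfap called higher (log2 fold change 0.77). Markers of ependyma and choroid plexus summed to 14.1 to 22.3 CPM against 14.9 to 975 CPM, with Ttr and Kl called higher. Their median log2 fold change was -0.24, and 3 of the 5 tested had negative log2 fold changes. Ttr alone ranged from 2.16 to 911 CPM in the EtOH mice, 1 of which lay below every Control mouse. Blood markers summed to 9.18 to 128 CPM against 9.74 to 74.1 CPM, with none of 5 called by edgeR, DESeq2 or limma voom (0 at an unadjusted p under 0.05). The part of these cell types in the levels of the 9 genes was not tested.

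Across the 12 mice, with group means removed, the 9 genes varied together only loosely. The median correlation of log2 CPM among the 36 gene pairs was 0.19, and 24 pairs were positive. The highest Pearson correlations were those of Mki67 with Aurkb (0.70) and of Mcm5 with Mcm7 (0.66), and the lowest was that of Top2a with Mcm7 (-0.73). All pairs share the same 12 libraries, and Aurkb rests on 4 to 36 counts per mouse, so these values are a description only. Of the 16059 genes tested, those most like Mki67 by this measure were Zfp939, Sugp1 and Atp23, those most like Top2a were Ap2a2, Isg15 and Plch2, and those most like Aurkb were Gm7067, Ankdd1a and Dhx33. For the helicase genes they were Stil, Btc and Tecpr1 (Mcm2), Retn, Zfp764 and Il17rb (Mcm3), Ctbp2, Tjp3 and Cybrd1 (Mcm4), Zfp157, Cep63 and Gm10925 (Mcm5), Ipo7, Kdm4c and Hnrnpr (Mcm6), and Uqcc1, 6530411M01Rik and Ccdc90b (Mcm7), with Pearson correlations between 0.858 and 0.947 over 12 mice for all 27. None of the 9 genes was among the 3 nearest of another.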

How the data were processed

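Cortex RNA of 7 Control and 5 EtOH mice was sequenced by BGI. Per the paper and the submitters' processing notes, the authors checked reads with FastQC 0.11.9, used STAR for alignment to GRCm39 (Gencode Release 28), counted with featureCounts and compared groups with DESeq2. The authors deposited 1 table of expected counts per gene symbol without normalization, in which 61 symbols hold values that are not whole (0 of the 108 values of the 9 genes). All 12 columns were matched to mice by name, 0 were left out, and counts were rounded. Settings for strand, read pairs and multiply mapped reads are not given in the sources used here, so genes with overlapping exons are uncertain.

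Genes were filtered with filterByExpr, normalized with TMM factors and tested in edgeR by quasi-likelihood, with p-values adjusted by Benjamini-Hochberg over all 16059 genes (R 4.3.3, edgeR 4.0.16, limma 3.58.1). Standard errors are the log2 fold change divided by the square root of F, and 95% confidence intervals use the test's degrees of freedom. Log2 CPM values carry a prior count of 2. Positions, lengths and promoters are from Gencode release M39 of GRCm39, newer than the authors' annotation. Floors cover counting error only. Mice were separate animals, and the 1 cortex library of each gives the spread.

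The genes, lists and tests were chosen with earlier results of these data known. Named genes are all 9, the genes called in the lists and, where fewer than 2 were called, the 4 most abundant of a list, the 3 genes most correlated with each of the 9, and called markers, some of which are not reported here. Ccnb1, Rrm2, Incenp, Birc5, Cdca8, Cenpa, Smc2, the cortical and oligodendrocyte precursor markers that were not called and the comparison of Mcm5 with Mcm6 were chosen after their values were seen. Alternatives were DESeq2 1.42.0, limma voom, other normalization factors, other filters, other fold change minimums, the replicate number as a block and each mouse left out. The fits were tested on simulated data.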

Additional observations from a re-analysis of the deposited data

Results flagged for a closer look

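Of 48 sets of values examined (a gene, a list or a total within 1 group), 4 had a single mouse far from the others, where chance gives about 2.4, and none of the 9 genes was among them. The library of Control mouse 5 summed to 40690223, against 32356913 for the second deepest of its group, and that of EtOH mouse 1 to 42183029, against 33313165. With both of these mice left out, 1438 genes were called in all, Top2a and Mcm5 among them, and Aurkb was not. EtOH mouse 2 had the highest mean log2 CPM of endothelial markers in its group (4.85, next 4.68), and Control mouse 6 that of blood markers (3.79, next 1.14).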

How the results depend on the processing

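Top2a and Mcm5 were called under DESeq2, limma voom, both other kinds of normalization factor, the lighter expression filter and no minimum fold change. Aurkb was called there too, but all of these except the lighter filter kept the filter that Aurkb passed through Control mice alone. Its repeated call is thus no independent support. Of the 22 alternative fits, Aurkb was called in 9 and dropped by the filter in 9. Top2a and Mcm5 without Aurkb were called with at least 10 counts in every mouse, with the replicate block, and with the alternatives chosen after seeing the data (counts halved, both deepest mice left out, only mice 1 to 5 of each group). With a minimum log2 fold change of 1, Top2a remained, and so did Aurkb under the same main filter. With each mouse left out, between 2 and 3 of the 9 were called lower and 0 higher, between 2 and 4 of the listed licensing, fork and mitosis genes lower and between 0 and 1 higher, and between 1162 and 1501 genes in all. DESeq2 called 5 listed genes lower in place of 3, with Rrm2 and Ccnb1 added, and Ccnb1 passed the filter through Control mice. Tk1, the only listed gene called higher, was lost, leaving 0, with at least 1 count in any mouse, with the replicate block and without both deepest mice, and the cause was not tested. With mice 1 to 5 of each group Cenpa was called higher in place of Tk1. Without a minimum fold change 3810 genes were called and 5 listed genes were higher, and with a minimum of 1 on the log2 scale these numbers were 524 and 0, with 1 listed gene lower, as fewer genes can pass a higher minimum. The log2 fold change of Mcm2 lay between -0.15 (without EtOH mouse 4) and 0.024 (without EtOH mouse 3) with 1 mouse left out, and Mcm2 was called in none of these fits.

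Replicate numbers do not pair the mice. Deviations of same-numbered mice correlated between -0.108 and 0.018 over 5 pairs, and 0 of the 5 EtOH mice correlated best with the Control mouse of their number. With the replicate block on 10 mice, 1310 genes were called, against 1374 on the same mice without it, and Aurkb did not pass the filter in either. The number of counts limits Aurkb most, with 34 counts in all EtOH mice together.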
